A study of Mus musculus with 4 samples.

Results

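The genes described here are 28 genes of cholesterol and fatty acid synthesis, out of 23444 gene symbols measured by RNA-seq in mouse lung fibroblasts. They were picked by symbol from a list of pathway enzymes and regulators. The sterol arm has 20 members and the fatty acid arm 8. For 27 members the deposited table gives the symbol itself, and Msmo1 was found under its older symbol Sc4mol. The cells were sorted for Pdgfra, a platelet-derived growth factor receptor that marks lung fibroblasts, out of the lungs of C57BL6 mice without any mutation (WT), obtained from timed pregnancies. There was 1 library at each of 4 ages: E16.5 and E18.5, in days of embryonic life, and P7 and P28, in days after birth. Where 4 values follow each other they stand in that order. The labels give neither the number nor the sex of the animals behind a library. With 1 library per age there is no spread between animals, so no difference below was tested and each is a difference between libraries.

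Cholesterol is built from acetyl-CoA. Enzymes of the mevalonate pathway make prenyl units and join them to squalene, and a second set of enzymes closes squalene to lanosterol and trims it to cholesterol. Fatty acid synthesis starts from the same acetyl-CoA, which is carboxylated, extended to palmitate, elongated and desaturated. Both arms are controlled by the SREBP transcription factors, which are held in the endoplasmic reticulum by Insig proteins and carried to the Golgi by Scap when sterols are low. In the lung, lipid synthesis is best known from alveolar type 2 epithelial cells, which make surfactant, and from lipid-storing fibroblasts that lie beside them.

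Values are FPKM, fragments per unit of transcript length and of library size, which allows levels of different genes to be set side by side within a library. A pair of libraries were called 2-fold apart for a gene when log2(FPKM + 1) differed by at least 1 and the larger value reached 5 FPKM. All 28 members reached 1 FPKM in at least 1 library, and 20 reached 5 FPKM, 13 of the sterol arm and 7 of the fatty acid arm. Most genes had low values at E18.5: over the 12561 genes that reached 1 FPKM anywhere, the median log2 difference from E16.5 was -0.71 as deposited and -0.03 after median-ratio scaling, which brings the median gene to the same level in each library. Counts are therefore given both ways. The marker genes of the sorted cell type were present at every age, with Pdgfra at 88.7, 95.9, 113 and 188 FPKM, youngest first. The summed share of 12 alveolar type 2 markers was 0.0459%, 0.125%, 0.0215% and 6.23% of all FPKM, and that of 8 airway markers was 8.92% at P28 against 0.00445% to 0.0340% before. Sorting for Pdgfra is meant to leave epithelial cells out, so the P28 library goes against its label in this respect. Results that rest on it are given beside these values. Markers of other cells were also present at the earlier ages. Leukocyte markers took 1.00% of all FPKM at E16.5, erythroid markers 0.614% at E18.5 and endothelial markers 0.647% at P7.

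**Figure D1:**
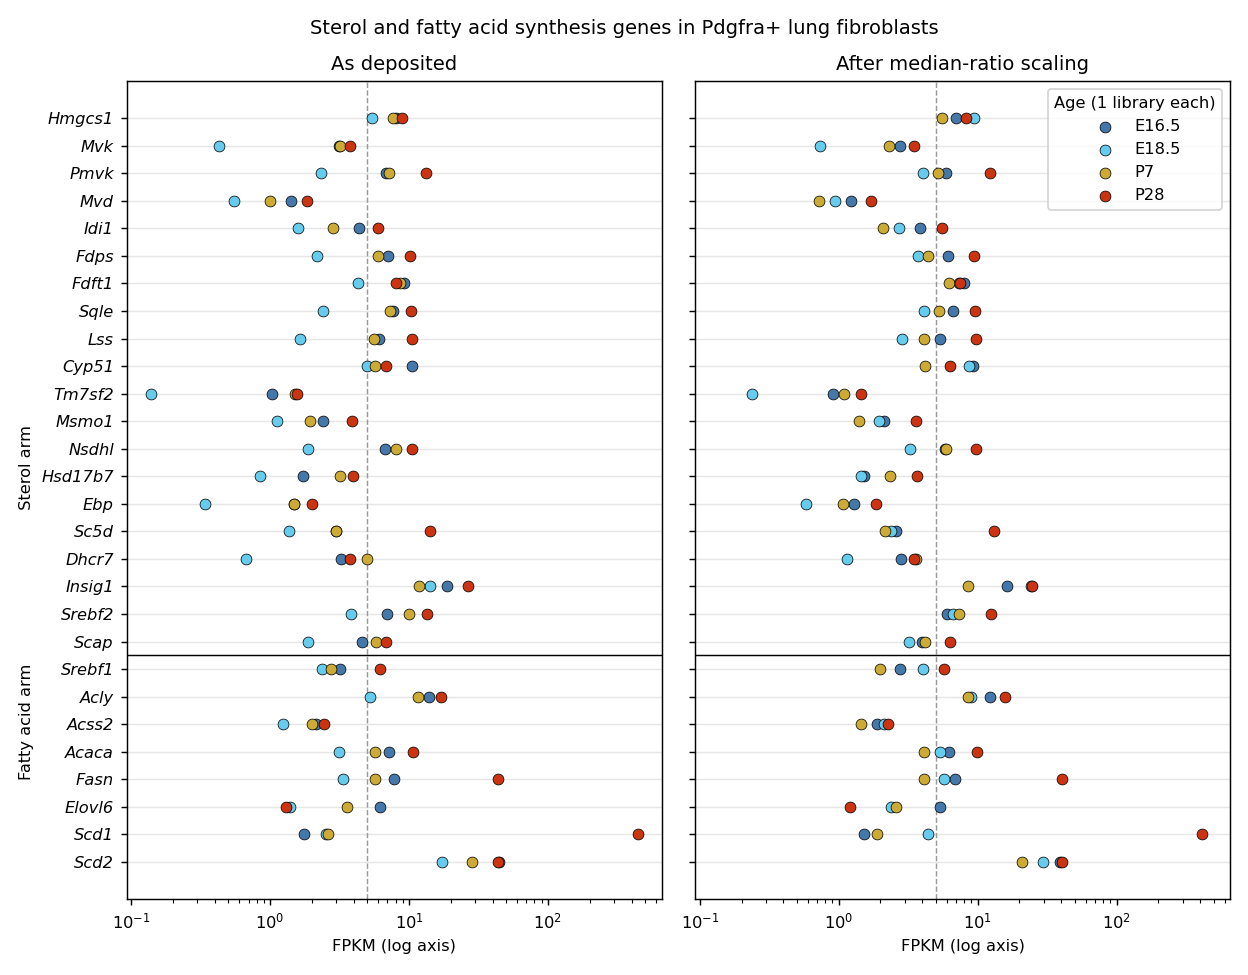
FPKM of the 28 members on a log axis, as deposited (left) and after median-ratio scaling (right), with 1 point per age and the 5 FPKM minimum as a dashed line. The E18.5 points lie lowest for 25 members on the left and for 11 on the right. Of all 12561 genes that reached 1 FPKM anywhere, 70.6% and 29.4% were lowest at E18.5. Scd1 and Fasn at P28 lie far to the right of their other ages.

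Before the values, promoter sequences of 5 members are shown, because these genes carry the main contrasts below: Hmgcs1 and Insig1, classical SREBP targets with a high E18.5 level after scaling; Sc5d and Fasn, with their highest level at P28; and Elovl6, with its lowest there. RefSeq promoter windows on GRCm38.p6, from 250 bases before to 50 bases after the start site, were matched for 23 of the 28 members, and Fdps, Fdft1, Sqle, Scd1 and Scd2 had no entry. Only bases before the first exon of the GENCODE M21 gene are printed, 5′ to 3′ on the strand of the gene. Capitals mark matches on either strand to CCAAT, the core of the box bound by NF-Y, to the E-box CACGTG, and to TCACNCCAC, a form of the sterol regulatory element.
Hmgcs1, chr13:119690101-119690350, plus strand: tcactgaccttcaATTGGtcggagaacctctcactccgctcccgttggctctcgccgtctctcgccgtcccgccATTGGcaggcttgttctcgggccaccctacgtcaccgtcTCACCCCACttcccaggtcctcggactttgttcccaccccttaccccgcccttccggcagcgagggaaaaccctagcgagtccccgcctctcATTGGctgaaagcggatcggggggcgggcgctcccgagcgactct
Insig1, chr5:28071162-28071362, plus strand: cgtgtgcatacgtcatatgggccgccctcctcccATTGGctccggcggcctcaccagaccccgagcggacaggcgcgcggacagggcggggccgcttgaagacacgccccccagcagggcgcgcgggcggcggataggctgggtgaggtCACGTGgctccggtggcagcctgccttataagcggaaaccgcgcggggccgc
Sc5d, chr9:42264301-42264550, minus strand: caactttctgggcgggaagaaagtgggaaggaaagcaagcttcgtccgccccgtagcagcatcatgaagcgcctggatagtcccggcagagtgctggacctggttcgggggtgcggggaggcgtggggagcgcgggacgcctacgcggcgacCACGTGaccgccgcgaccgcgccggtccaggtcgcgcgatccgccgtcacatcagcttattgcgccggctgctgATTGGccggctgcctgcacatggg
Fasn, chr11:120824548-120824797, minus strand: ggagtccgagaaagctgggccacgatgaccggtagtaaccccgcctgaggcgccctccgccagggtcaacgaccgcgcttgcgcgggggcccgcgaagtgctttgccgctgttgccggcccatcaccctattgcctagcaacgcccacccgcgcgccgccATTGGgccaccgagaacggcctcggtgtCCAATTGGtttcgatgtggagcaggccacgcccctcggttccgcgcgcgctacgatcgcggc
Elovl6, chr3:129532136-129532354, plus strand: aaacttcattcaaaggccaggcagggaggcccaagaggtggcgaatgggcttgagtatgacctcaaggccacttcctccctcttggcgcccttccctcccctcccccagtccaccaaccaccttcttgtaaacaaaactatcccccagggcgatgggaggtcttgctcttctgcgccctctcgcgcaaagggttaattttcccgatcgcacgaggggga

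CCAAT was found in a window of 20 of the 23 matched members, or 87.0%, against 42.5% of 9344 genes with a window that reached 1 FPKM anywhere. The members without it were Scap, Acaca and Elovl6. Of 41 CCAAT matches, 25 lay within 100 bases before the start site, in 16 genes. CACGTG was found in 5 members (Hsd17b7, Sc5d, Dhcr7, Insig1 and Scap), or 21.7%, against 11.4% of those genes. The sterol element TCACNCCAC was found in 1 member, Hmgcs1, or 4.35% against 1.38%. GGGCGG, the GC box, was in 19 members, 82.6% against 68.6%. Printed sequences of Fasn and Elovl6 differ in CCAAT, with 3 matches before the start site of Fasn and 0 in Elovl6. This contrast does not extend to all members. Scap and Acaca had no match and were highest at P28, as Fasn was. Cyp51 and Dhcr7 had a match and were highest at E16.5 and P7. The median share of G and C over the 250 upstream bases was 64.0% for the members, taking the richest window of each gene. It was 52.4% over all windows, which also cover genes under 1 FPKM here, so these medians are not on a like footing. The motif shares were not corrected for G and C. A match is a description of letters only.

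**Figure D2:**
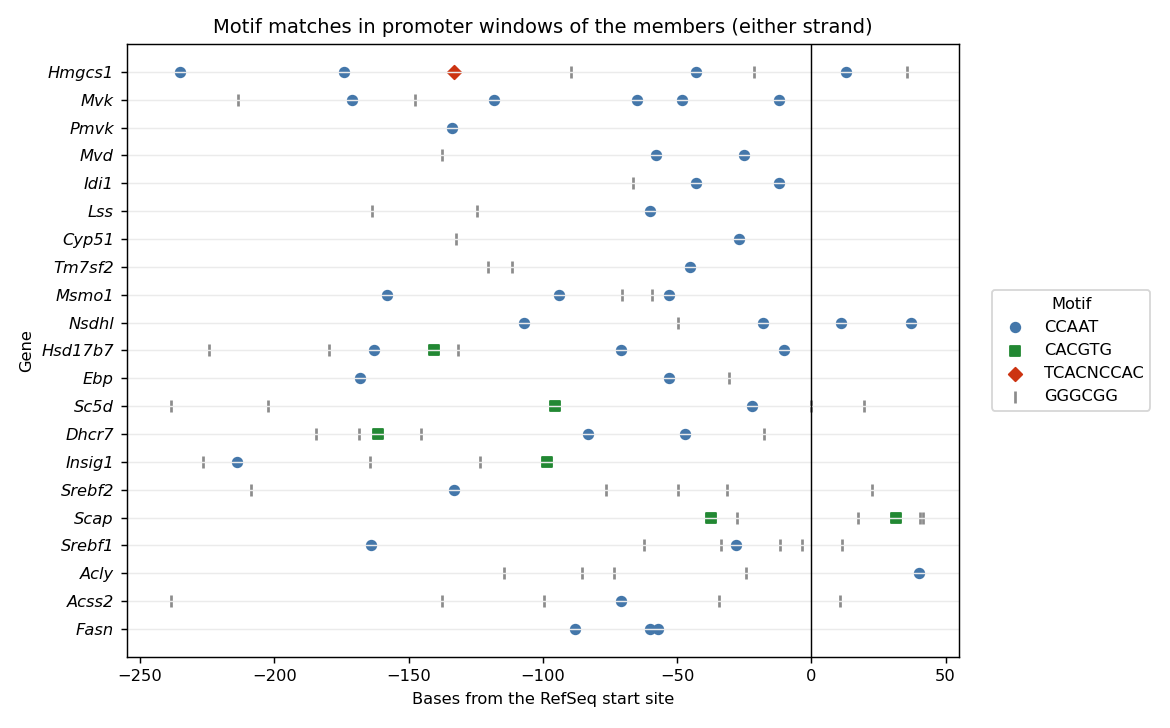
Position of each motif match relative to the RefSeq start site (0, vertical line) for the 21 members with at least 1 match; genes with several start sites show the matches of all their windows. Blue points are CCAAT, green squares CACGTG, the red diamond TCACNCCAC and grey ticks GGGCGG, and most CCAAT matches stand within 100 bases before the start.

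The sterol arm was expressed at a modest level at all ages. Its median member was at 5.35, 1.76, 5.68 and 7.46 FPKM over the 4 ages. These levels correspond to percentiles 55.5, 46.4, 52.3 and 65.1 among the 12561 genes of the same library, a ranking that does not depend on the scale of a library. The summed FPKM of the 20 genes was 114, 52.1, 107 and 166 from the youngest to the oldest library, and after scaling it was 99.5, 89.7, 77.7 and 154. The arm thus had its highest sum at P28 on both scales, and its lowest at E18.5 as deposited but at P7 after scaling. P28 was the highest of the 4 libraries for 17 of 20 members as deposited and for 16 after scaling, and for 27.5% and 32.9% of all 12561 genes. E18.5 was the lowest for 19 of 20 members as deposited and for 11 after scaling, against 70.6% and 29.4% of all genes.

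The first enzymes of the mevalonate pathway make and phosphorylate mevalonate. Hmgcs1, HMG-CoA synthase (GRCm38 chromosome 13, 119690379 to 119708260, plus strand), was at 8.07, 5.44, 7.69 and 8.85 FPKM from E16.5 to P28. Its values lay within 1.63-fold of each other, the narrowest range of the sterol arm, and after scaling E18.5 was its highest library at 9.37. Mevalonate kinase (Mvk) was at 3.14, 0.429, 3.18 and 3.77 FPKM, youngest first. Phosphomevalonate kinase (Pmvk) was at 6.80, 2.35, 7.20 and 13.2, and Mvd, the decarboxylase that follows, at 1.41, 0.548, 0.995 and 1.84. The kinases were thus lowest at E18.5 on both scales, while the synthase was highest there after scaling. The ratio of Hmgcs1 to Mvk was 12.7 at E18.5 against 2.35 to 2.56 at the other ages. It rests on an Mvk value of 0.429 FPKM at E18.5, and Mvk stayed under 5 FPKM in every library.

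The prenyl units are isomerised, joined and condensed to squalene by the next enzymes. Isopentenyl diphosphate isomerase (Idi1) was at 4.40, 1.58, 2.86 and 5.99 FPKM, youngest first. Farnesyl diphosphate synthase (Fdps) was at 7.01, 2.17, 6.02 and 10.2, and squalene synthase (Fdft1) at 9.22, 4.30, 8.56 and 8.03. Fdft1 was the member with the least difference after scaling, 1.29-fold between its highest and lowest library. The reads of Fdps are uncertain, since 86.4% of the 50-base stretches of its longest coding transcript in GENCODE M21 also occur in a transcript of another gene, as do 21.3% for Idi1 and 10.9% for Fdft1.

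The conversion of squalene to lanosterol needs an epoxidase and a cyclase. Squalene epoxidase (Sqle) was at 7.62, 2.40, 7.26 and 10.3 FPKM over the 4 ages. Lanosterol synthase (Lss) was at 6.13, 1.65, 5.63 and 10.6. Both were lowest at E18.5 and highest at P28 on either scale. Cyp51, the demethylase that acts on lanosterol, had another order of ages, with 10.6, 4.99, 5.73 and 6.88 FPKM from the youngest to the oldest library. It was highest at E16.5, and after scaling both fetal libraries, at 9.21 and 8.60, lay above P7 at 4.16 and P28 at 6.38.

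The remaining enzymes remove methyl groups, move the double bonds and finish cholesterol. Nsdhl, a sterol dehydrogenase, was at 6.72, 1.89, 8.12 and 10.4 FPKM from E16.5 to P28. Another 5 enzymes stayed under 5 FPKM in every library: the methylsterol oxidase Msmo1 (1.12 to 3.92), the sterol reductase Tm7sf2 (0.139 to 1.55), the keto-sterol reductase Hsd17b7 (0.845 to 3.95), the sterol isomerase Ebp (0.340 to 2.01) and the final reductase Dhcr7 (0.671 to 4.98). Dhcr7 was the 1 sterol member whose highest library was P7, on both scales.

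Sc5d, the sterol desaturase one step before Dhcr7 (GRCm38 chromosome 9, 42251595 to 42264256, minus strand), was at 2.97, 1.37, 2.98 and 14.2 FPKM, youngest first. The P28 library stood apart from the other 3, which after scaling lay between 2.16 and 2.59. Its share of the summed FPKM of the sterol arm was 2.60%, 2.63%, 2.78% and 8.53% over the 4 ages. Sc5d moved from percentile 34.9 at P7 to 81.4 at P28, while its partner Dhcr7 went from 48.8 to 45.2.

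Of the regulators, Insig1 retains SREBP in the endoplasmic reticulum and is itself an SREBP target. It was the most abundant sterol member in every library, at 18.8, 14.1, 11.8 and 26.5 FPKM from the youngest to the oldest library. After scaling the E18.5 and P28 libraries, at 24.4 and 24.5, stood above E16.5 at 16.3 and P7 at 8.59. Its percentile was 86.6, 91.4, 72.1 and 90.8 from E16.5 to P28. By rank Insig1 was thus lowest at P7, with 86.6 or more in the other 3 libraries. Srebf2, the SREBP that mainly drives sterol genes, was at 6.90, 3.85, 10.0 and 13.6 FPKM, and its escort Scap at 4.57, 1.86, 5.81 and 6.85. Srebf2 was higher at each successive age after scaling, at 6.02, 6.64, 7.29 and 12.6. The ratio of Insig1 to Srebf2 was 2.72, 3.67, 1.18 and 1.95, youngest first.

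The fatty acid arm had its highest sum at P28 on both scales. Its summed FPKM as deposited was 86.9, 36.4, 62.6 and 567 over the 4 ages. After scaling it was 75.8, 62.7, 45.4 and 525, so its lowest library was P7 rather than E18.5. Without Scd1 the sums as deposited were 85.2, 33.9, 60.0 and 125. Scd1 therefore made up 77.9% of the arm at P28, against 2.02% at E16.5, 6.99% at E18.5 and 4.17% at P7. As deposited, 6 of 8 members were lowest at E18.5, where 70.6% of all genes were, so this count is near that share. At P7 0 were lowest, against 6.65% of all genes, and at P28 6 were highest, against 27.5%. After scaling, 6 of 8 were lowest at P7, where 20.95% of all genes were, and 7 were highest at P28, where 32.9% were. The percentile of the median member was 62.4, 59.4, 46.0 and 79.8 from the youngest to the oldest library.

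Acetyl-CoA for the pathway is made from citrate by Acly and from acetate by Acss2. Acly was at 14.0, 5.23, 11.7 and 17.1 FPKM from E16.5 to P28. Acss2 stayed at a low level, at 2.16, 1.23, 2.0 and 2.46. The ratio of Acly to Acss2 lay between 4.24 (E18.5) and 6.94 (P28). Acaca, the carboxylase that makes malonyl-CoA, was at 7.15, 3.12, 5.67 and 10.6 FPKM, youngest first, although 52.6% of its 50-base stretches also occur in a transcript of another gene.

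Fatty acid synthase (Fasn, GRCm38 chromosome 11, 120805846 to 120824547, minus strand), which builds palmitate, was at 7.83, 3.35, 5.68 and 43.6 FPKM over the 4 ages. Fasn and Acaca kept nearly the same level up to P7, with a ratio of 1.09 at E16.5, 1.07 at E18.5 and 1.00 at P7, and the ratio was 4.10 at P28. None of the 50-base stretches of Fasn occurred in another gene. The P28 library alone stood high, at percentile 95.0, against 52.3 to 67.2 in the other 3.

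The stearoyl-CoA desaturases Scd1 and Scd2 turn saturated into monounsaturated fatty acids. Both lie on GRCm38 chromosome 19 (Scd1 at 44394455 to 44407879, minus strand, and Scd2 at 44293674 to 44306864, plus strand), 87591 bases apart. Scd2 was the most abundant fatty acid member before P28, at 44.7, 17.2, 28.6 and 43.9 FPKM from the youngest to the oldest library. Scd1 was at 1.75, 2.55, 2.61 and 442. The ratio of Scd1 to Scd2 was 0.0393, 0.148, 0.0911 and 10.1 from E16.5 to P28. The order of these desaturases was thus inverted in the P28 library. Of the 50-base stretches of Scd1 4.66% occur in other genes, and of those of Scd2 4.01%. Scd1 reached 5 FPKM through the P28 library alone.

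Elovl6, which elongates palmitate, went the other way, at 6.17, 1.38, 3.59 and 1.31 FPKM, youngest first. It was the 1 member of the 28 with its lowest value at P28 on both scales, and its percentile was 60.2, 40.0, 39.8 and 18.3. The ratio of Fasn to Elovl6 was 1.27, 2.42, 1.58 and 33.4 over the 4 ages. Srebf1, the SREBP that mainly drives fatty acid genes, was at 3.19, 2.35, 2.75 and 6.18 FPKM, and its scaled values were 2.78, 4.05, 2.0 and 5.72.

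**Figure D3:**
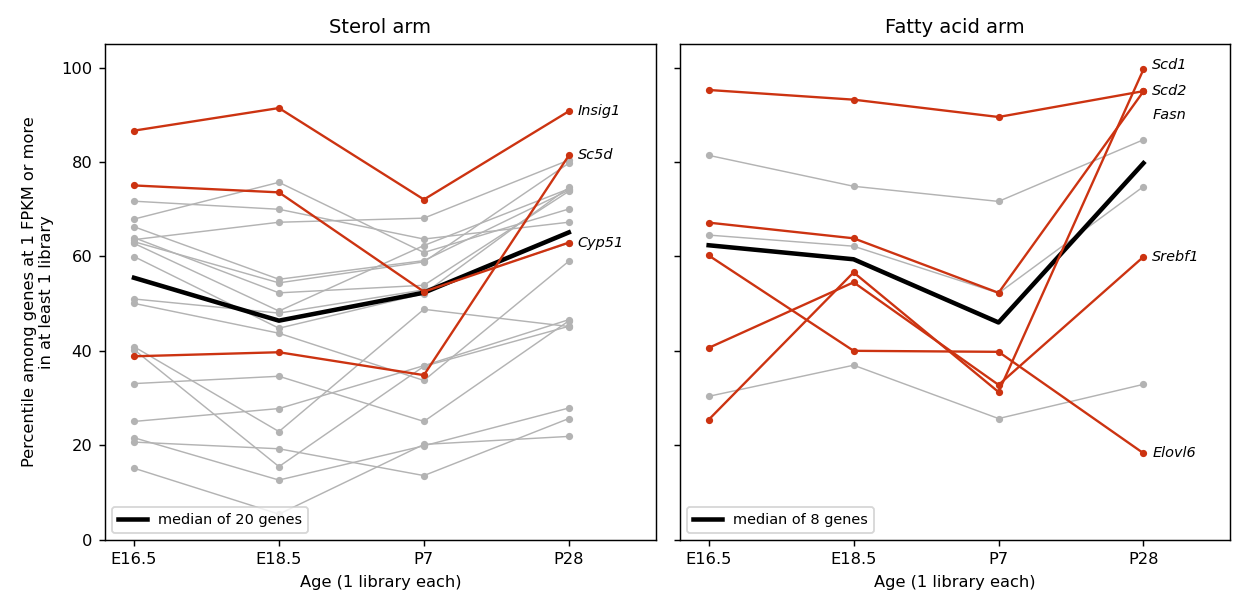
Percentile of each member within its library, among the 12561 genes that reached 1 FPKM anywhere, by age, for the sterol arm (left) and the fatty acid arm (right); the black line is the median of the arm and red lines are members named beside them. The median of the fatty acid arm is 46.0 at P7 and 79.8 at P28, Scd1 and Fasn reach 95.0 or more at P28, and Elovl6 ends at 18.3.

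E18.5 was set against E16.5 to describe the arms before birth. Of the members, 10 of the sterol arm and 5 of the fatty acid arm reached 5 FPKM in at least 1 of this pair of libraries. As deposited, 5 of 20 sterol members (Pmvk, Fdps, Sqle, Lss and Nsdhl) and 4 of 8 fatty acid members (Acly, Fasn, Elovl6 and Scd2) were at least 2-fold lower and 0 were higher. Among all genes at 5 FPKM in 1 of the pair, 47.4% were lower and 2.32% higher as deposited, so lower calls were common among all genes. After median-ratio scaling 0 members of either arm were 2-fold apart, against 12.2% of genes lower and 9.34% higher. The median log2 difference was -0.95 for the sterol and -1.0 for the fatty acid arm as deposited, and -0.31 and -0.20 after scaling, where the median of all genes was -0.03. After scaling 3 members of each arm were above 0, Hmgcs1 (0.37), Insig1 (0.55) and Srebf2 (0.12) in the sterol arm and Srebf1 (0.42), Acss2 (0.12) and Scd1 (1.09, with both libraries under 5 FPKM) in the fatty acid arm. Mvk (-1.11) and Elovl6 (-0.91) were the most negative. The leukocyte markers took 1.00% of the FPKM of the E16.5 library and 0.0998% of that of E18.5, and erythroid markers took 0.0374% and 0.614%, with 11 of 12 leukocyte markers lower and 5 of 8 erythroid markers higher as deposited. Their part in these differences was not tested.

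P7 was set against E18.5 to describe the arms across birth. Here 11 sterol and 4 fatty acid members reached 5 FPKM in 1 of the pair. As deposited 7 of 20 sterol members (Pmvk, Fdps, Sqle, Lss, Nsdhl, Srebf2 and Scap) and 1 of 8 fatty acid members (Acly) were at least 2-fold higher, and 0 were lower, where 63.3% of genes were higher and 2.89% lower. After scaling 1 sterol member, Insig1, was lower with a log2 difference of -1.40, and no member was higher, against 12.0% of genes lower and 14.7% higher. The medians were 1.14 and 0.66 as deposited, against 0.92 for all genes, and 0.23 and -0.37 after scaling, against 0.04. Over the 8 sterol members that reached 5 FPKM after scaling, the median was -0.05, so its side of 0 depends on the minimum. Endothelial markers took 0.0440% of the FPKM of the E18.5 library and 0.647% of that of P7, while erythroid markers took 0.614% and 0.0111%. All 12 endothelial markers were higher and 6 of 8 erythroid markers lower as deposited, and their part was not tested.

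P7 against E16.5 leaves out the E18.5 library and compares the ages with high cell division genes. In this pair 11 sterol and 5 fatty acid members reached 5 FPKM in 1 library as deposited, and 10 and 5 after scaling. The rest could not be called. No member of either arm was 2-fold apart, as deposited or after scaling. Among all genes 15.7% were higher and 6.68% lower as deposited, and 12.3% and 9.62% after scaling. The medians were -0.03 for the sterol and -0.27 for the fatty acid arm, against 0.16 for all genes, and after scaling -0.23 and -0.49 against -0.03. Scaled differences ranged from -0.98 for Cyp51 to 0.40 for Hsd17b7. The members with the most negative scaled differences after Cyp51 were Scd2 (-0.87), Insig1 (-0.86) and Elovl6 (-0.82). Between these libraries all 12 endothelial and 3 of 6 mesothelial markers were higher and 11 of 12 leukocyte markers lower as deposited. Their part was not tested.

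P28 was set against P7 to describe the maturing lung, with 13 sterol and 6 fatty acid members at 5 FPKM in 1 of the pair. In the fatty acid arm Scd1 (169-fold by FPKM) and Fasn (7.68-fold) were at least 2-fold higher as deposited, 2 of 8 members, and after scaling Srebf1 and Acaca joined them, 4 of 8. In the sterol arm 2 of 20 were higher, Sc5d (4.77-fold) and Insig1 (2.24-fold), and after scaling also Pmvk, Idi1 and Lss, 5 of 20. Srebf1, Idi1 and Sc5d, like Scd1, reached 5 FPKM as deposited in the P28 library alone. After scaling Fasn, Acaca and Lss were also under 5 FPKM at P7, at 4.12, 4.11 and 4.08. Of this pair, their scaled calls thus met the minimum through P28 alone. No member passed the call for lower values. Elovl6 was the nearest to it, at a fold by FPKM of 0.364 and a log2 difference of -0.99, or -0.70 after scaling, with its larger value under 5 FPKM, and Dhcr7 was at -0.33 and -0.04. Among all genes 10.5% were higher and 16.9% lower as deposited, and 14.6% and 10.3% after scaling. The medians were 0.36 for the sterol and 0.70 for the fatty acid arm, against -0.23 for all genes, and after scaling 0.64 and 1.01 against 0.03.

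These P28 differences came with markers of other cells. All 12 alveolar type 2 markers were at least 2-fold higher at P28, with Sftpc at 15.5 FPKM at P7 and 10149 at P28, and Abca3, the surfactant lipid transporter, at 2.11 and 31.3. So were 6 of 8 airway markers, with Scgb1a1 at 26.2 and 19258. Lyz2, which type 2 cells share with leukocytes, was at 15.0 and 5062, while Ptprc, the pan-leukocyte marker, was at 0.278 and 0.0983. Mesothelial markers summed to 52.0 and 163 FPKM, with 4 of 6 higher, while 11 of 12 endothelial markers and 4 of 8 pericyte and smooth muscle markers were lower. Of the 10 fibroblast markers 5 were higher and 1 lower. The summed level of 8 adipocyte markers was 0.520 at P7 and 2.82 at P28, nearly all of it Adrb3 (0.181 and 2.73), and Adipoq, Lep, Retn, Cfd and Cidec were listed at 0 at P28. The comparisons that leave out P28 are those above. The part of epithelial RNA in the P28 values of Scd1, Fasn, Sc5d and the other members was not tested, and in a bulk library more cells of a type and more RNA per cell cannot be told apart.

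**Figure D4:**
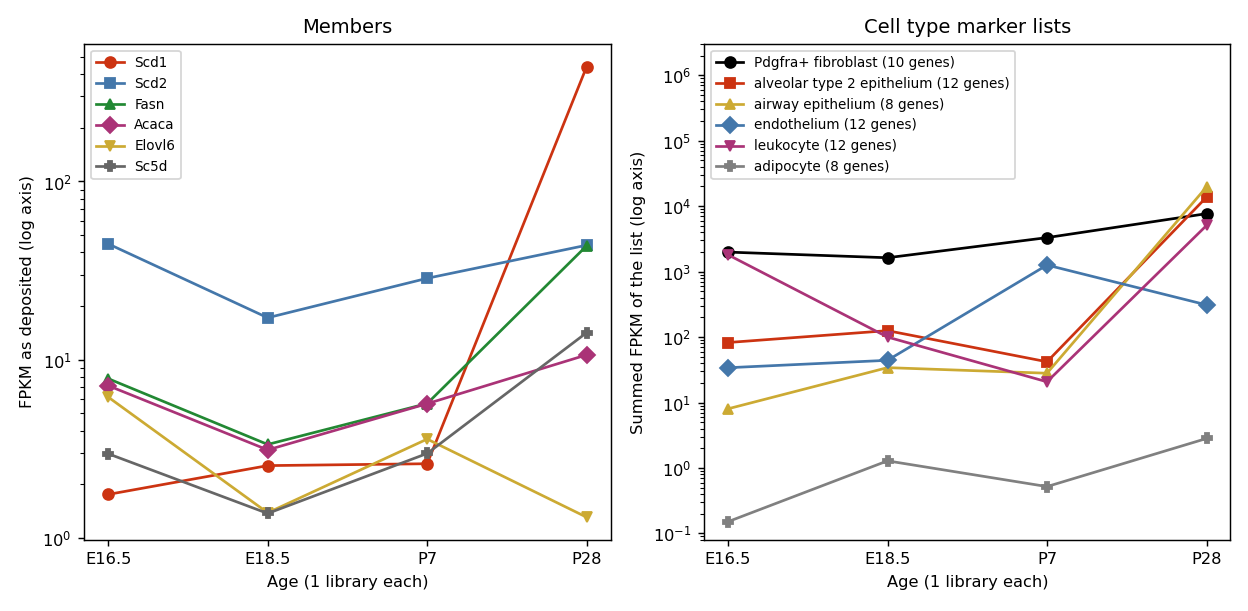
FPKM of 6 members (left) and summed FPKM of 6 marker lists (right) by age, both on log axes, with 1 library per age. Scd1 goes from 2.61 to 442 FPKM between P7 and P28, the interval in which the alveolar type 2 sum goes from 41.9 to 13715 and the airway sum from 28.0 to 19633.

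The ends of the course were compared because neither the E18.5 library nor P7 enters there. P28 was at least 2-fold above E16.5 for Sc5d in the sterol arm and for Scd1 and Fasn in the fatty acid arm, and below it for Elovl6, the same 4 genes as deposited and after scaling. Among all genes 18.0% were higher and 16.9% lower as deposited, and 19.7% and 15.0% after scaling. The fold by FPKM was 4.78 for Sc5d, 252 for Scd1, 5.57 for Fasn and 0.212 for Elovl6. Scd2, the other desaturase, was at a fold of 0.983. The medians of the arms were 0.44 and 0.39, against -0.03 for all genes. This comparison shares its libraries with those above. In it 13 sterol and 7 fatty acid members reached 5 FPKM in 1 of the pair. All 12 alveolar type 2, 6 of 8 airway, all 12 endothelial and 5 of 6 mesothelial markers were higher at P28 than at E16.5. Of 12 leukocyte markers 10 were lower and 1 was higher. These counts were the same on both scales, and the part of other cells in the member differences was not tested.

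**Figure D5:**
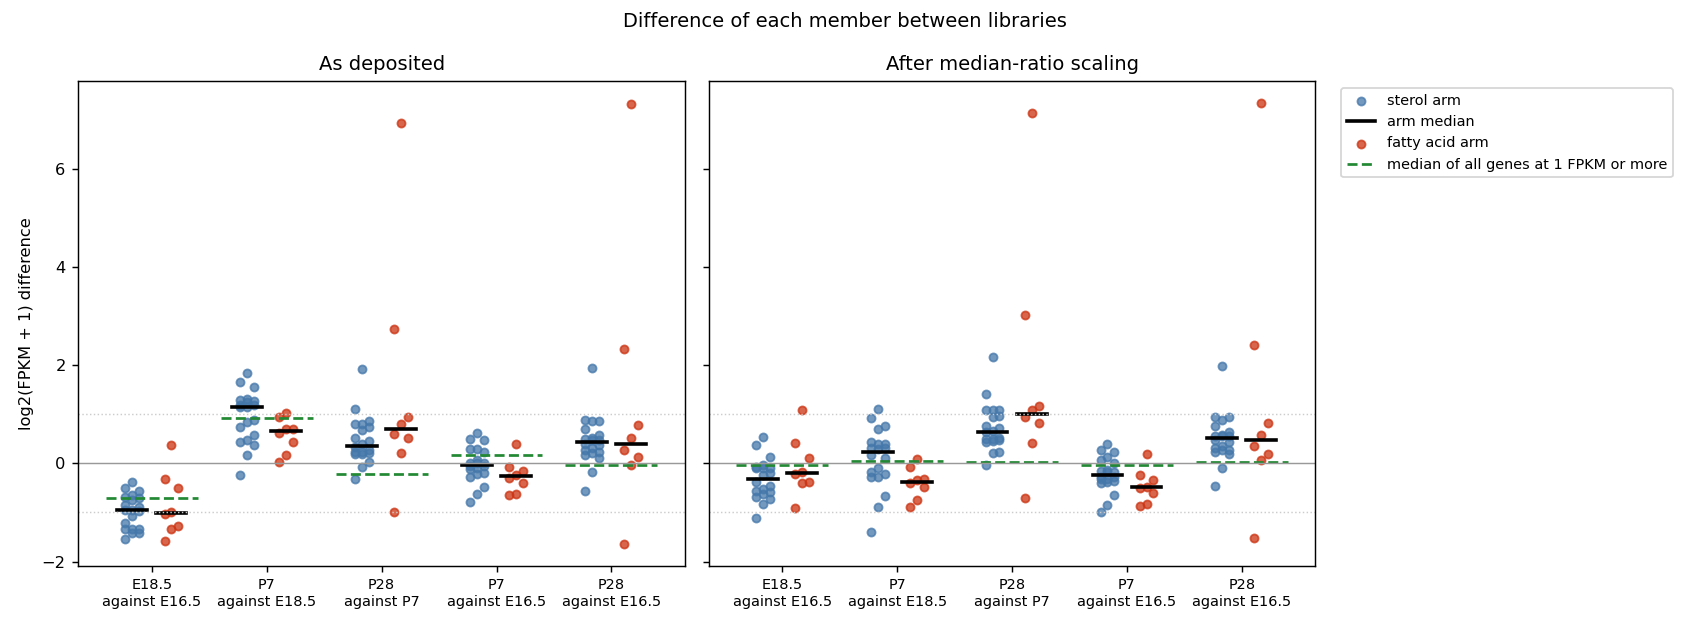
Difference in log2(FPKM + 1) of each sterol (blue) and fatty acid (red) member in 5 comparisons, as deposited (left) and after median-ratio scaling (right). Black bars are arm medians, green dashes the median of all genes that reached 1 FPKM anywhere, and dotted lines mark a 2-fold difference; in the P28 comparisons both arm medians lie above the green dashes, and Scd1 is the highest point.

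Other genes of the pathways were read from 10 further lists of 124 genes, 123 of them in the table. In the list of SREBP processing and sterol feedback, 0 of 9 genes were 2-fold higher and 1 was lower at P28 against P7 on both scales, the sterol carrier Stard4, at 3.54, 2.16, 9.11 and 2.95 FPKM from the youngest to the oldest library. Insig2, the sister of Insig1, was at 3.86, 1.88, 7.65 and 8.23. The ratio of Insig1 to Insig2 was 4.86, 7.53, 1.55 and 3.22 from E16.5 to P28. Of 6 other sterol synthesis genes 0 were 2-fold apart at P28 against P7 on either scale. The prenyl branch also had 0 of 10 genes apart between these ages, with the most abundant, the prenyltransferase subunit Rabggtb, at 35.8, 8.23, 28.7 and 21.4. In these lists 7 of 9, 5 of 6 and 4 of 10 genes reached 5 FPKM in 1 of the pair, on both scales. The rest could not be called. Among all genes at that minimum 10.5% were higher and 16.9% lower as deposited, and 14.6% and 10.3% after scaling.

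A further list held genes that take up, move and store sterol. At P28 against P7, 5 of 13 were higher on both scales (Npc1, Npc2, Vldlr, Lrp1 and Soat1), where 10.5% and 14.6% of genes were. Those shares are over genes at 5 FPKM in 1 of the pair, which 10 of the 13 reached as deposited and 9 after scaling. Npc2, which hands cholesterol out of lysosomes, was at 15.8, 9.29, 11.8 and 64.9 FPKM, youngest first, and its membrane partner Npc1 at 12.2, 2.78, 15.3 and 35.9. The esterifying enzyme Soat1 was at 7.85, 3.72, 4.75 and 22.0. Scarb1, a lipoprotein receptor, was highest at P7, at 5.78, 2.35, 16.0 and 7.30. Of the sterol-sensing receptors, Nr1h3 was at 1.97, 2.49, 2.81 and 8.97 and Nr1h2 at 5.72, 1.54, 15.8 and 13.1, and the oxysterol enzyme Cyp27a1 was at 1.14, 0.149, 0.552 and 9.85.

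In the list of other fatty acid synthesis, elongation and desaturation genes, 5 of 22 were higher at P28 against P7 as deposited and 6 after scaling. None was lower, and 10.5% and 14.6% of all genes at 5 FPKM were higher. That minimum was reached by 16 of the 22. The elongase Elovl1 was at 7.86, 3.16, 15.9 and 67.4 FPKM over the 4 ages, in contrast to Elovl6. The acyl-CoA synthetase Acsl4 was at 2.64, 1.45, 3.51 and 18.1, Mid1ip1, an activator of acetyl-CoA carboxylase, at 4.49, 2.66, 8.90 and 27.4, and Acsl5 at 14.2, 4.62, 17.9 and 41.0. The enoyl reductase Tecr was the most abundant of the list, at 119, 41.4, 133 and 171. In glycerolipid synthesis 5 of 16 genes were higher at P28 as deposited and 6 after scaling, beside the same 10.5% and 14.6%. Of the 16, 11 reached 5 FPKM in 1 of the pair. They were led by Lpcat1, an enzyme of surfactant phospholipid remodelling, at 9.30, 14.7, 16.0 and 98.2. Lpin1, a phosphatidate phosphatase, was the 1 gene of that list at least 2-fold higher at E18.5 than at E16.5 as deposited, at 4.51 and 15.6 FPKM, with 1.44 at P7 and 7.98 at P28.

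Fatty acid oxidation, which breaks down what the arm makes, had 1 of 13 genes higher at P28 against P7 as deposited (Acadm) and 2 after scaling. All genes stood at 10.5% and 14.6%, and 10 of the 13 reached 5 FPKM in 1 of the pair. Cpt1a, which admits fatty acids to mitochondria, was at 17.7, 5.16, 43.8 and 26.9 FPKM from the youngest to the oldest library. In the list of lipid droplets and uptake, 4 of 13 were higher at P28 as deposited and 5 after scaling. The same shares of all genes stand beside them, and 7 of the 13 reached 5 FPKM. G0s2, an inhibitor of lipolysis, was at 8.69, 6.06, 3.98 and 30.2, and Fabp5, a fatty acid carrier, at 8.75, 2.53, 2.07 and 23.8. Cd36, a fatty acid transporter that endothelial cells also express, was at 1.80, 2.29, 104 and 101, with the endothelial sum at 34.0, 44.1, 1259 and 310.1 FPKM.

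The cell division list was set beside the arms, since dividing cells need new membrane. All 14 of its genes were at least 2-fold lower at E18.5 than at E16.5 as deposited and 13 after scaling. Of all genes at 5 FPKM in 1 of that pair, 47.4% and 12.2% were lower. All 14 were lower at P28 than at E16.5 on both scales, where 16.9% and 15.0% of all genes were. The medians of the list there were -3.21 as deposited and -3.09 after scaling. Over the same ages the sterol arm had medians of 0.44 and 0.51, and the fatty acid arm 0.39 and 0.47. At E18.5 against E16.5 the scaled medians were -2.44 for the division list, -0.31 for the sterol and -0.20 for the fatty acid arm, and at P7 against E18.5 they were 1.62, 0.23 and -0.37. In the same order the scaled medians were -2.30, 0.64 and 1.01 at P28 against P7. At P7 against E16.5 they were -0.81, -0.23 and -0.49. The division list and the sterol arm thus lay on the same side of 0 at E18.5 and at P7 against E16.5. They lay on opposite sides at P28 against E16.5 and at P28 against P7. At P7 against E18.5 the side of the sterol arm depends on the minimum, with a scaled median of -0.05 over the 8 members at 5 FPKM. The fatty acid arm lay opposite the division list there. A link between the arms and division was not tested.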

How the data were processed

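RNA-seq of sorted Pdgfra+ lung fibroblasts gave 4 libraries. Per the labels, RNA came from a kit for circulating nucleic acids and was read as Nextera XT libraries from both ends. TopHat, TopHat2 2.0.9, GRCm38 and mm10 stand in the submitters' processing notes, and the sources used here do not say which program made the expression values. FPKM in the deposited table were computed by the authors, per the file headers. FPKM keeps no read totals, so depth is unknown. From the commonest ratio of low values, E16.5 was estimated to be 1.42 times as deep as E18.5, 0.953 times P7 and 1.06 times P28, although only 3.69% to 5.62% of the low values shared that ratio. Some positive values are as small as a log10 of -256, which marks them as outputs of a model, and a gene listed at 0 may be one that the model could not estimate.

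The 23931 entries were summed by symbol to 23444. Differences were taken on log2(FPKM + 1), called at 2-fold with 5 FPKM in the larger library, and set against all genes with that minimum. Folds by FPKM carry no pseudocount. Median-ratio factors were 1.15, 0.581, 1.38 and 1.08 in order of age, from 7930 genes with at least 1 FPKM in every library. The other settings tried were upper-quartile scaling, pseudocounts (0.1 and 5), other minimums (0 or 20 FPKM) and a 4-fold threshold. With 1 library per age nothing was tested. The code was tested on simulated data. Stretches of 50 bases shared between genes were counted over GENCODE M21 transcripts, and promoter windows came from RefSeq on GRCm38.p6. Of the further list genes, 6 were matched by an older symbol. Genes named from each further list are drawn from its most abundant gene, the 4 with the largest range and those called. Some genes that this rule names are not reported here. The members and lists were chosen with earlier results of these data known, and the comparison of P28 with E16.5 was a later addition made with the data in view. Python 3.11.15, numpy 2.4.6, pandas 2.3.3 and matplotlib 3.10.9 were used.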

Additional observations from a re-analysis of the deposited data

How the results depend on the processing

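No paired analysis was possible because each age has 1 library and no test was run; for the same reason no replicate could be left out. At E18.5 against E16.5, 5 sterol and 4 fatty acid members were lower: the sterol count was 0 with a pseudocount of 5, a 20 FPKM minimum, a 4-fold threshold or either scaling and 8 with no minimum, and the fatty acid count was 1 with a pseudocount of 5 or a 20 FPKM minimum and 0 with a 4-fold threshold or either scaling. At P7 against E18.5, the 7 sterol members and the 1 fatty acid member that were higher became 0 under those same 5 settings, and 11 sterol members were higher with no minimum. Under median-ratio and upper-quartile scaling 1 sterol member was lower there. At P28 against P7, 2 members of each arm were higher: median-ratio and upper-quartile scaling gave 5 sterol and 4 fatty acid members, a pseudocount of 5 or a 20 FPKM minimum gave 1 sterol member, and a 4-fold threshold gave 0. The 2 fatty acid members higher at that step stayed 2 with a pseudocount of 5, no minimum, 20 FPKM or a 4-fold threshold. At P7 against E16.5, 1 sterol member was lower under upper-quartile scaling. At P28 against E16.5, the 1 higher sterol member became 0 with a 20 FPKM minimum or a 4-fold threshold, the 1 lower fatty acid member became 0 with those or a pseudocount of 5, and the 2 higher fatty acid members stayed 2 in all 7 settings. Of 140 member differences, called or not, 25 changed sign with median-ratio and 26 with upper-quartile scaling, and 0 with either pseudocount. Of the 25 called as deposited, the 1 that changed sign under the scalings was that of Acly at P7 against E18.5, from 1.02 to -0.0801 with median-ratio and -0.18 with upper-quartile scaling. Both scalings bring E18.5 up, and the cause of the other moves was not tested. With depth unknown, no floor can be given for the genes under 1 FPKM.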
